A study of Mus musculus with 16 samples.

Results

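H3K27ac islands of SETD5-transduced 3T3-L1 preadipocytes were compared between 48 h and 0 h of adipogenic induction, in replicates A and B. An island is a run of consecutive 200-bp windows that the caller SICER found enriched for H3K27ac in 1 library. The 4 lists of SETD5-transduced cells held 155072 of the 479799 islands in all 16 libraries of the series. Within each letter, 48 h islands that shared no base with a 0 h island were counted as gained, and 0 h islands that shared no base with a 48 h island were counted as lost. A region was gained or lost in both letters when it held islands of A and B at 1 time and of neither letter at the other.

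3T3-L1 is a mouse fibroblast line that turns into adipocytes after hormonal induction. Unless it says otherwise, the study used its line with moderate SETD5 expression. Cells carried a retrovirus with V5-tagged SETD5, driven from a weak viral promoter, or an empty retrovirus. Both were sampled on day 0, when confluent for 2 days and not yet induced, and on day 2, 48 h after a mix of isobutylmethylxanthine (0.5 mM), dexamethasone (0.25 μM) and insulin (1 μg/ml) was added. Each vector and time had 2 libraries. The labels spell the transgene SETD-V5. All libraries come from 1 cell line, and no sequencing depth is recorded in the island lists. The series also holds SETD5-V5 islands at 0 h and 6 h (2 libraries each) and H3K4me1 islands at 0 h and 48 h (1 library each), which were used only as independent readouts.

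Acetylation of histone H3 at lysine 27 marks active enhancers and promoters, whereas H3K4me1 alone marks enhancers that are primed. SETD5 is a subunit of the NCoR-HDAC3 corepressor complex, in which HDAC3 removes acetyl groups from histones. In adipogenesis, dexamethasone acts through the glucocorticoid receptor and isobutylmethylxanthine through cyclic AMP, C/EBPβ and C/EBPδ come early, and C/EBPα and PPARγ then switch on the genes of the fat cell. The question of the comparison is which of these loci still gained, lost or lengthened H3K27ac islands when SETD5 was added.

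The following 200-bp stretches of mm9 come from the 2 gained and the 2 lost regions with the highest island scores among those ranked. They were chosen because, among the regions ranked, these carry the clearest change in both letters. Here and below, a chromosome was left out before regions were ranked by score or length change. The regions named may therefore not be the highest of the whole genome. Each stretch is the grid window of its region with the most matches to the 5 motifs counted further on, printed on the plus strand with the matches in capitals.
Gained, region at a promoter of Spnb5, chr2:119880801-119881000: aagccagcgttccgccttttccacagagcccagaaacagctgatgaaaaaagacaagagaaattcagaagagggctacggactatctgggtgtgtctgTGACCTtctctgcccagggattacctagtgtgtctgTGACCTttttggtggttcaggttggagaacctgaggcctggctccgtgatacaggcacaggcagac
Gained, intron of Zbtb16, chr9:48590801-48591000: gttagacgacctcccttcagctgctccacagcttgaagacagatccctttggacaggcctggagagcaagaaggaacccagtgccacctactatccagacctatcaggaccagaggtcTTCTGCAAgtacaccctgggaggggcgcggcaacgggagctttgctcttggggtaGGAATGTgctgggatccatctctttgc
Lost, intergenic, chr2:131574201-131574400: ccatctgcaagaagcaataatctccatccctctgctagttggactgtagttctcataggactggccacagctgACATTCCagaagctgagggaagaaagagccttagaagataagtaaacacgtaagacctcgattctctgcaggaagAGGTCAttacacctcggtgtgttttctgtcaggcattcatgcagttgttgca
Lost, intergenic, chr4:93106201-93106400: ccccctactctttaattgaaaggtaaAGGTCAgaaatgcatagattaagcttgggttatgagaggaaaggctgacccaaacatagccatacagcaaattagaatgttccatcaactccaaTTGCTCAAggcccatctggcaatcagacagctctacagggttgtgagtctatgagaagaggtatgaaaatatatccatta
In the first stretch both capitals are the AGGTCA nuclear receptor motif read on the other strand. The second holds a C/EBP and a TEAD match, the third a TEAD and an AGGTCA match, and the fourth an AGGTCA and a C/EBP match.

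The 4 lists held 36604 to 39949 islands that covered 109 to 121 Mb. Of the islands of a list, 87.8 to 93.1% touched an island of the other letter at the same time. The exons of Setd5 checked the vector labels, since a viral cDNA carries exons without introns. Islands covered 37.3 and 46.0% of Setd5 exon bases at 0 h and 44.9 and 48.3% at 48 h in SETD5-transduced cells, against 2.79 to 3.37% in empty-vector cells. The SETD5-V5 libraries of letter A, whose virus label is a dash, covered 85.0 to 100%, and those of letter B 79.1 to 84.1%. The H3K4me1 libraries, labelled as transduced, covered 0.58 and 9.41%. Reads of the viral and the endogenous Setd5 cannot be told apart, so no value of the Setd5 window is read as a change at the endogenous gene. Promoters (1000 bp before to 100 bp after a transcript start) of 7 or 8 of the 8 fibroblast and preadipocyte markers carried an island in every SETD5-transduced library. Their windows together held 203.6 and 211.2 kb at 0 h and 144.2 and 166.0 kb at 48 h. Dlk1, Col1a2 and, named after its values were seen, Pdgfrb fell with SETD5 at an adjusted p under 0.05, and none rose. Of the 6 skeletal muscle markers none carried a promoter island in any library, and 3 of them, Myod1, Myog and Pax7, had no island within 50 kb. The muscle windows together held 21.4 and 24.0 kb at 0 h and 17.8 and 18.2 kb at 48 h. Among them, and named after their values were seen, Myf5 rose from 1 kb in both letters to 5 and 3.4 kb with SETD5, more than with empty vector (adjusted p = 0.0437 for the difference), and Des fell (adjusted p = 0.00984). Promoters with an island numbered 0 or 1 of 6 bone and cartilage markers, 1 or 2 of 6 macrophage and blood markers, 0 or 1 of 4 endothelial and 1 of 5 brown adipocyte markers in SETD5-transduced cells. Windows of Acan, Ptprc, Emr1, Itgam, Kdr, Dio2 and Prdm16 had no island, but other markers of these lists did. Summed over a list, windows held 38.4 to 52.2 kb for bone and cartilage, 40 to 51.4 kb for macrophage and blood, 12 to 17.6 kb for endothelium and 27.6 to 39.8 kb for brown adipocytes, lower at 48 h than at 0 h in all but endothelium, where the times overlap. Among markers named after their values were seen, with SETD5 Ucp1 rose (adjusted p = 0.0226) and Col2a1, Ibsp, Csf1r and Ppargc1a fell (adjusted p = 0.00404 to 0.0141). The part of other cell types in the results was not tested. In these mixed populations, fewer cells that acetylate a locus and less acetylation per cell cannot be told apart.

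Islands were gained and lost in similar numbers after induction of SETD5-transduced cells. Of the 48 h islands, 10827 (27.7%) in A and 12098 (30.7%) in B had been gained, a share of 29.2% ± 2.09 (SD, n = 2). Of the 0 h islands, 11427 (28.6%) in A and 9123 (24.9%) in B had been lost, or 26.8% ± 2.60 (SD, n = 2). In both letters, 7245 of 33931 regions present at 48 h were gained (21.4%), and 6593 of 33223 regions present at 0 h were lost (19.8%). Retained regions numbered 24457 at 48 h and 24671 at 0 h. Gained regions had a median length of 2200 bp and a median score at percentile 32.2 of their own lists, against 2800 bp and percentile 65.3 for retained regions. Lost regions had a median of 2400 bp and percentile 30.7.

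The gained share was close to that of empty-vector cells, and the lost share was lower in both letters. Empty-vector cells gained 28.9 and 30.9% and lost 33.2 and 33.8% of their islands. The gained share was 0.72 percentage points lower with SETD5 (value of SETD5 minus empty vector -0.72), with p = 0.6667 in a two-sided exact permutation test. The lost share differed by -6.70 points, with p = 0.3333 in the same exact test, the smallest that 2 libraries against 2 allow. The gained shares of the 2 vectors overlapped and the lost shares did not. With the 31000 highest-scoring islands of each list, the gained share differed by -4.16 points and no longer overlapped (exact permutation p = 0.3333).

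Islands also changed in length. Where islands of both times overlapped, a locus counted as lengthened when its 48 h islands covered at least 1.5 times and 2000 bp more than its 0 h islands, and as shortened in the reverse case. In SETD5-transduced cells 7.60% of shared loci in A and 7.21% in B were lengthened, against 11.9% in each letter of empty-vector cells. Shortened loci made up 6.80 and 9.74% with SETD5 and 10.0 and 7.42% with empty vector. Thus the lengthened shares of the 2 vectors lay apart, and the shortened shares overlapped. In both letters 966 regions were lengthened and 965 shortened with SETD5, against 1338 and 856 with empty vector. Islands of 20 kb or longer went in number from 63 to 136 in A and from 87 to 194 in B with SETD5, and from 140 to 249 and 86 to 211 with empty vector.

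**Figure D1:**
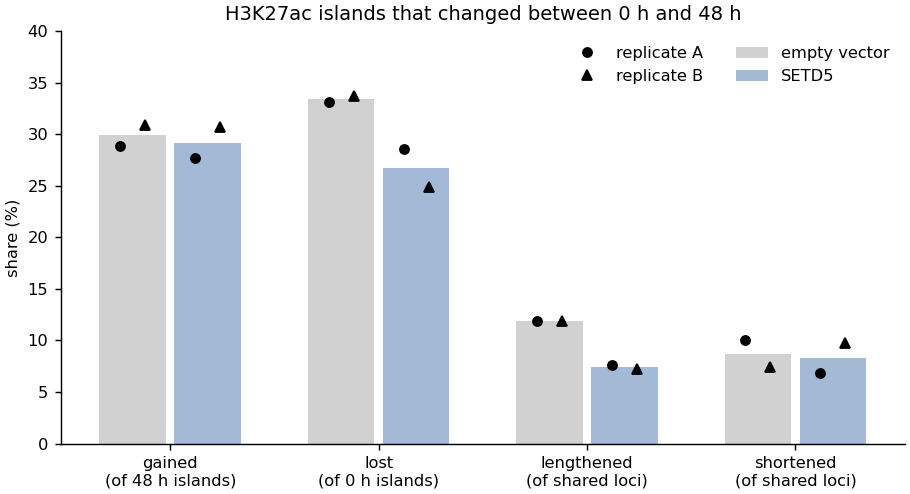
Share of H3K27ac islands gained (of 48 h islands) or lost (of 0 h islands) and of shared loci lengthened or shortened, in %, for empty vector (grey) and SETD5-transduced cells (blue). Bars are means of the 2 letters, circles replicate A and triangles replicate B. The lost shares with SETD5 (28.6 and 24.9%) lie below both of empty vector (33.2 and 33.8%), as do the lengthened shares (7.60 and 7.21% against 11.9%).

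The 5 gained regions with the highest scores among those ranked lay in or near genes. The highest was chr2:119880001-119889600, which held 8600 bp of islands in A and 9600 bp in B at 48 h and none at 0 h, and touches a promoter of Spnb5, a spectrin gene. The second was chr9:48590401-48600200 in an intron of Zbtb16, a zinc finger repressor known as a glucocorticoid receptor target, with 7600 and 9600 bp. The third, chr17:8715201-8722800, held 6800 and 7400 bp at a promoter of Pde10a, a phosphodiesterase. A 25-kb region over exons and introns of Nt5m (chr11:59692801-59717800) followed, with 20000 and 24600 bp. The fifth was intergenic, 16.4 kb from Bcl2l10 (chr9:75208601-75215400), with 5400 and 6800 bp. All 5 had 6000 to 25000 bp of islands in each empty-vector library at 48 h and none at 0 h. SETD5-V5 islands of both letters at 6 h touched 3 of these 5 regions, 1 was touched in A only, and the Zbtb16 region in neither.

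The strongest lost regions among those ranked were all intergenic. The region chr2:131571201-131582000 held 10600 and 9800 bp at 0 h, and chr4:93103001-93108800, at -103.7 kb from the 5′ end of Tusc1, held 5800 and 5200 bp. The other three lay on chromosomes 13 and 5, the nearest genes being Srek1ip1, Fam65b and Grpel1, with 3400 to 6400 bp at 0 h. None of the 5 had any island at 48 h in either vector, and all 5 had 4200 to 9800 bp in each empty-vector library at 0 h.

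The 5 largest extensions among the regions ranked in SETD5-transduced cells gave domains of 43800 to 72600 bp. At Fkbp5, a chaperone of the glucocorticoid receptor and a classical target of it, islands of chr17:28542001-28605400 covered 19800 and 20200 bp at 0 h and 58200 and 63400 bp at 48 h. At Ksr1, a scaffold of the MAP kinase pathway, coverage of chr11:78866001-78938600 went from 25600 and 39000 to 67200 and 72600 bp. At Angptl7, a secreted angiopoietin-like protein encoded within Mtor, chr4:147859801-147911000 went from 15400 and 19200 to 50000 and 50600 bp. That domain covered 28600 and 39800 bp in empty-vector cells at 48 h, less than in either SETD5-transduced library. An intron of Gnao1, a G protein subunit, and a region at the Sned1 promoter went from 6800 to 18800 bp at 0 h up to 37800 to 49400 bp at 48 h. SETD5-V5 islands at 6 h covered 22800 to 65800 bp of each of these 5 domains in both letters.

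The 5 largest reductions among the regions ranked included matrix and signalling loci. At Col3a1, which encodes a fibrillar collagen, chr1:45384601-45402000 went from 17400 and 16200 bp to 2200 and 2000 bp. At Rspo2, an activator of Wnt signalling, chr15:42897801-42918000 went from 17600 and 17400 bp to 3400 bp in both letters. The region at Gpihbp1 and Zfp41 (chr15:75425201-75449600) went from 24400 and 20400 bp to 5600 and 8600 bp, and 12200 and 12400 bp remained in empty-vector cells. The other two were intergenic, on chromosomes 2 and 10. Empty-vector cells showed the same direction at all 5.

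Gained and lost regions lay away from promoters. A promoter was touched by 6.57% of gained, 4.25% of lost and 39.9% of retained 48 h regions. Gene bodies without a promoter held 47.2% of gained and 40.7% of lost regions, and 46.2 and 55.1% were intergenic. Lengthened loci reached a promoter more often than shortened loci, at 34.8 against 14.3%.

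SETD5-V5 islands were measured in other libraries and are independent of the classes. At 6 h they touched 47.3% ± 8.76 (SD, n = 2) of gained, 67.9% ± 15.0 of retained and 27.6% ± 6.00 of lost regions. At 0 h the shares were 5.90% ± 4.33, 27.6% ± 16.8 and 8.54% ± 7.14. In both 6 h libraries gained regions were touched more often than lost ones, and retained regions most often. Lengthened loci had a 6 h island in 87.2% ± 7.25 and shortened loci in 73.1% ± 9.09. These 2 classes are longer, and a longer region is touched more easily. Taking only the central 1000 bp left 79.6 and 64.6%, and 45.9% for gained and 26.0% for lost regions.

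H3K4me1 followed the time of the acetylation. Of gained regions 32.7% had an H3K4me1 island at 0 h and 53.6% at 48 h, whereas lost regions went from 56.1 to 31.8%. Retained regions held 68.5 and 62.6%. These are single libraries, so no spread between replicates can be set beside them. They are labelled as transduced, but their islands covered only 0.58 and 9.41% of Setd5 exon bases. Whether their cells carried the transgene is thus uncertain.

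Motif matches differed between the classes. The central 1000 bp of each region were searched on both strands for C/EBP (TTGCNNAA), AP-1 (TGANTCA), TEAD (GGAATGT), the nuclear receptor motif AGGTCA and the glucocorticoid receptor core (ACANNNTGT). No motif holds another in full. C/EBP matches were in 49.6% of gained, 39.3% of lost and 37.5% of retained regions, beside 38.9% of all mm9 windows of this length. TEAD matches were in 22.8% of lost against 13.9% of gained, 15.0% of retained and 13.0% of genome windows. The receptor core was in 35.8% of gained, 30.0% of lost, 25.5% of retained and 29.4% of genome windows. AP-1 matches were most frequent in gained regions (37.8%), followed by lost (32.3%), retained (29.0%) and genome windows (26.6%). AGGTCA was in 49.9% of gained and 44.7% of lost regions and in 44.5% of genome windows. Mean GC content was 44.0% in gained, 43.4% in lost and 49.4% in retained windows, and its part in these shares was not tested.

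**Figure D2:**
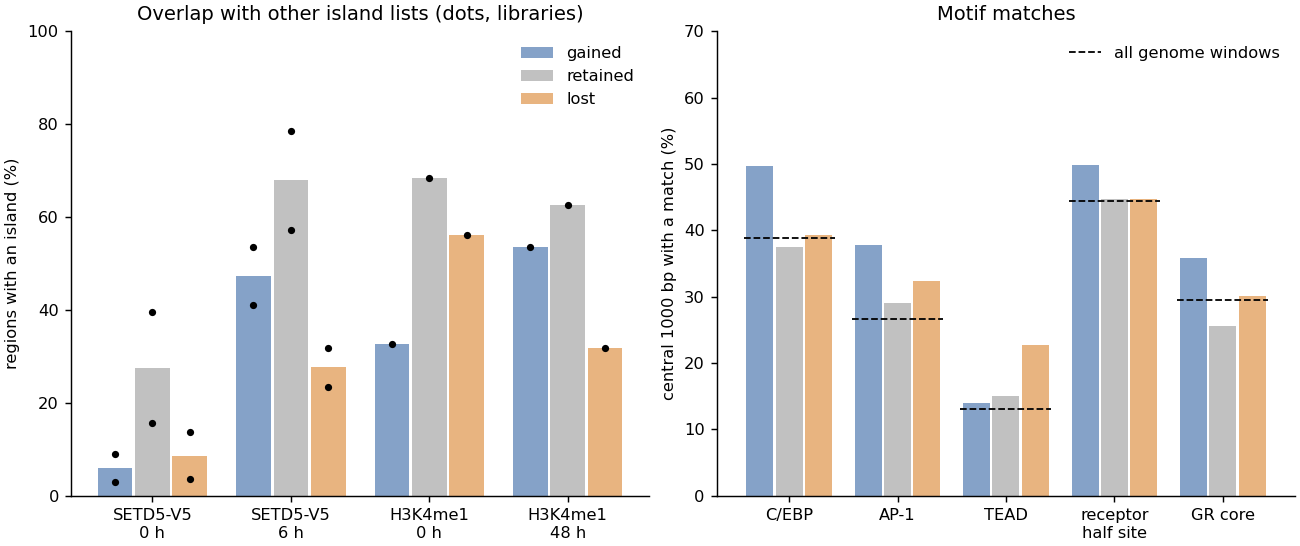
Left, share of gained (blue), retained (grey) and lost (orange) regions of SETD5-transduced cells, in %, that touch SETD5-V5 or H3K4me1 islands; bars are means and dots single libraries. Right, share of central 1000-bp windows with a motif match, in %, with the share of all genome windows as a dashed line: gained regions stand above it for C/EBP (49.6 against 38.9%) and lost regions for TEAD (22.8 against 13.0%).

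Part of the changes of SETD5-transduced cells had a counterpart in empty-vector cells. Of the 7245 gained regions, 3303 (45.6%) were gained in both letters of empty vector, 230 (3.17%) were present at both times there, and 2231 (30.8%) had no island in any empty-vector library. In 1439 (19.9%) the letters of empty vector differed, and 42 (0.58%) were present there at 0 h and absent at 48 h in both letters. Of the 6593 lost regions, 3761 (57.0%) were lost in both letters of empty vector and 1332 (20.2%) had no island there. Of the 6119 regions that empty-vector cells gained, 48.6% were gained by SETD5-transduced cells and 22.4% (1373) had no island in any SETD5-transduced library. At 48 h the empty-vector lists held 31292 and 33131 islands, against 39068 and 39451 with SETD5. At 0 h they held 33704 and 35460, against 39949 and 36604. The part of list size in the regions without a counterpart was not tested.

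Gained regions without a counterpart were weaker. Their median score stood at percentile 22.4 of their lists, against 42 for those gained in both vectors, and their median length was 2000 against 2600 bp. H3K4me1 islands at 48 h touched 32.4% of the former and 66.5% of the latter, and SETD5-V5 islands at 6 h touched 38.1% ± 7.01 and 52.3% ± 9.29 (SD, n = 2). C/EBP matches were in 48.3 and 50.9%. The 1373 regions gained with empty vector alone had SETD5-V5 islands at 6 h in 23.0% ± 4.22 (SD, n = 2), a C/EBP match in 48.1% and H3K4me1 at 48 h in 52.6%. Since the cells of the H3K4me1 library may lack the transgene, its shares may not describe SETD5-transduced cells.

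For a test over replicates, the length of H3K27ac islands was summed within 50 kb of each gene's 5′ end, giving 1 value in kb per gene window and library. With limma on log2(covered kb + 1), 2439 of 16251 windows rose at 48 h in SETD5-transduced cells (15.0%) and 1869 fell (11.5%), at an adjusted p under 0.05. In empty-vector cells 3909 rose (24.1%) and 2090 fell (12.9%). The median change over all windows was 0.00 with SETD5 and 0.14 with empty vector on the log2 scale. Of the windows that rose with SETD5, 1902 (78.0%) rose with empty vector, which is 48.7% of those. Of the windows that fell, 1162 (62.2%) fell with empty vector, or 55.6% of those. Windows of neighbouring genes share islands and are not independent of each other. Rising windows with SETD5 numbered 1332 without the 48 h library B and 1559 without the 0 h library A. Falling windows numbered 993, 994 and 1230 without the 0 h library B, the 48 h library A and the 48 h library B.

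Glucocorticoid-responsive genes rose together in SETD5-transduced cells. Of 17 glucocorticoid-responsive genes tested, 15 rose and none fell, with a median change of 1.31 (log2), and leaving out any 1 library left 13 to 15. Empty-vector cells also had 15 rising. Among all windows 15.0% rose with SETD5 and 24.1% with empty vector. Errfi1, a feedback inhibitor of growth factor receptors, went from 7.60 and 7.80 kb at 0 h to 40.2 and 48.8 kb at 48 h (log2 change 2.38 ± 0.14 SE, adjusted p = 1.34e-05). Empty-vector cells went from 6.4 and 5.40 to 44.2 and 44.0 kb. Ddit4, a stress-induced inhibitor of mTORC1, went from 16.9 and 22.1 to 54.7 and 61.6 kb (1.54 ± 0.15, adjusted p = 8.71e-05). Fkbp5 went from 16.2 and 19.4 to 49.8 and 51.3 kb (1.46 ± 0.12, adjusted p = 3.74e-05). Lcn2, a secreted lipocalin, went from 24.6 and 28.9 to 47.7 and 46.5 kb (adjusted p = 0.000963). The groups did not overlap for any of these genes.

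Of 12 cyclic AMP-responsive genes tested, 6 rose and 1 fell, beside 15.0 and 11.5% over all windows. Without the 0 h library A or the 48 h library B only 3 rose. Nr4a1, an orphan nuclear receptor, covered 34.9 and 42 kb at 0 h and 62.0 and 66.3 kb at 48 h (0.73 ± 0.16, adjusted p = 0.00687), and Rgs2, a regulator of G protein signalling, 6.00 and 7.40 against 18.7 and 24.5 kb (adjusted p = 0.000478). Sik1, a kinase induced by cyclic AMP, covered 53.1 and 56.5 against 66.3 and 73.7 kb (adjusted p = 0.0202). Without the 0 h library A, Nr4a1 and Sik1 no longer passed (adjusted p = 0.0641 and 0.113), nor without the 48 h library B (adjusted p = 0.0632 and 0.146). Sik1 did not pass over the gene body with 10 kb on each side either (adjusted p = 0.116). The window that fell, named after its values were seen, was Ppargc1a, a coactivator of oxidative metabolism, which went from 21.4 and 24.2 to 13.6 and 13.8 kb (adjusted p = 0.0103) and did not pass without the 48 h library A, the 0 h library B or the 48 h library B.

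**Figure D3:**
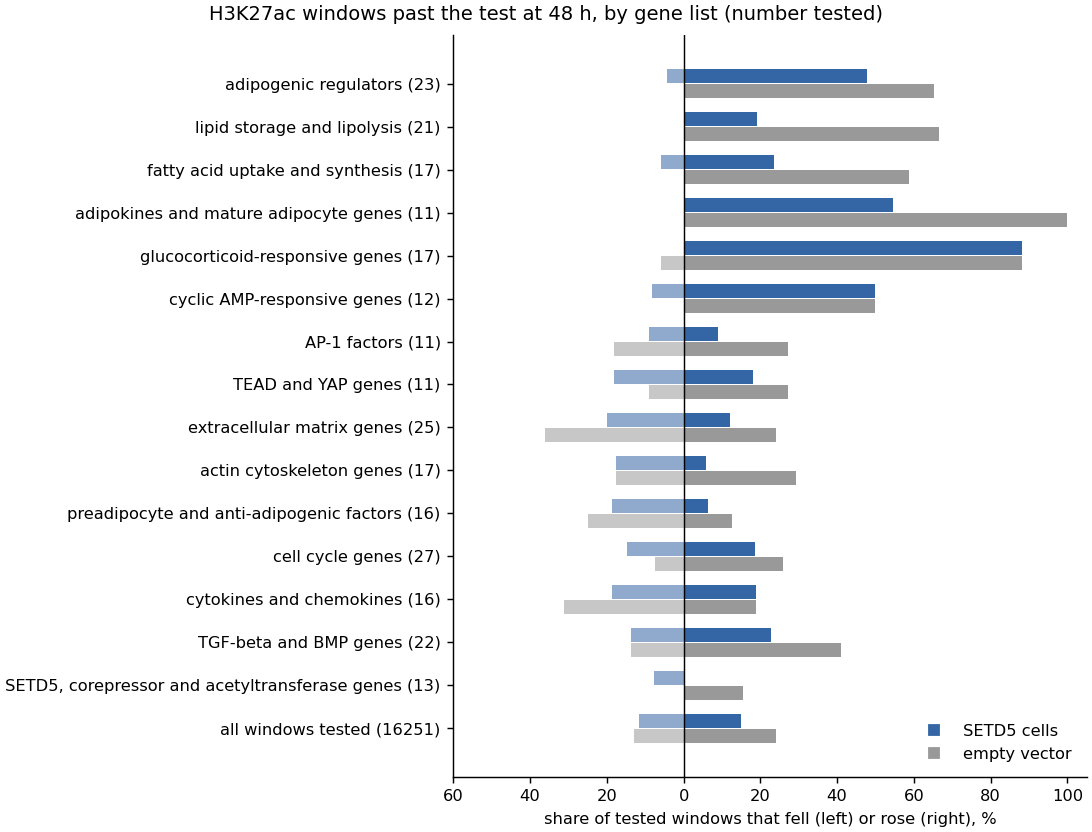
Share of tested windows of each gene list, in %, that rose (right) or fell (left) at 48 h in SETD5-transduced (blue) and empty-vector cells (grey), by limma with an adjusted p under 0.05. The number tested stands in brackets. Rising windows make up 15 of 17 glucocorticoid-responsive genes in both vectors, but 4 of 21 lipid storage genes with SETD5 against 14 with empty vector. Among all windows, 15.0% rose with SETD5 and 24.1% with empty vector.

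The adipogenic regulators split. Of 23 tested, 11 rose, 1 fell and 11 did not pass, with a median change of 0.58 (log2) beside 0.00 over all windows. Over the gene body with 10 kb on each side 9 rose and 1 fell, and with scaling to covered length 15 rose and 2 fell. In empty-vector cells 15 rose and none fell. The shares of all windows were 15.0% rising and 11.5% falling with SETD5, and 24.1% rising with empty vector. Cebpb was among those that rose with SETD5, as were Klf15, Rxra and Srebf1. Cebpb, whose product is the early C/EBP (chr2, 15.2 and 17.0 kb at 0 h), reached 30.2 and 34.4 kb (0.96 ± 0.14, adjusted p = 0.000992). Over the gene body with 10 kb on each side its change was 0.20 and did not pass (adjusted p = 0.294). Klf15, a Krüppel-like factor of adipogenesis, went from 8.4 kb in both letters to 29.4 and 23.0 kb (adjusted p = 0.000225). The Klf15 promoter had an island in both empty-vector 48 h libraries and in no SETD5-transduced library. Rxra, the partner of PPARγ, went from 39.6 and 43.2 to 69.0 and 71.6 kb (adjusted p = 0.000395), and Srebf1, a regulator of lipid synthesis, from 11.4 and 10.8 to 29.4 and 26.8 kb (adjusted p = 0.0106). Srebf1 did not pass when any 1 library of SETD5-transduced cells was left out (adjusted p = 0.0544 to 0.0815). The window that fell was Nr1h3, a sterol-sensing nuclear receptor, named after its values were seen, from 12.6 kb in both letters to 8.20 and 7.60 kb (adjusted p = 0.02, a call lost without any 1 of the 4 libraries of SETD5-transduced cells), whereas it covered 8.60 and 7.20, then 13.4 and 11.2 kb with empty vector. Cebpd, a pseudogene in the annotation used and so not tested, covered 6.20 and 6.00 kb at 0 h and 8.60 and 10.2 kb at 48 h.

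Cebpa, which encodes the C/EBP of the terminal programme (chr7:35904312-35906945), did not move with them. Its window covered 12.3 and 12.7 kb at 0 h and 15.3 and 11.7 kb at 48 h in SETD5-transduced cells, so that the times overlap (0.09 ± 0.15, adjusted p = 0.725). With empty vector it went from 17.3 and 18.7 to 52.7 and 46.5 kb. The difference between these changes was -1.32 ± 0.21 on the log2 scale (adjusted p = 0.0151), and both SETD5-transduced 48 h libraries lay below every empty-vector library. The call was lost without the 48 h library A of empty vector (adjusted p = 0.0586) and without either the 0 h or the 48 h library B of SETD5-transduced cells (adjusted p = 0.0657 and 0.0644), at differences of -1.14 to -1.30. Over the gene body with 10 kb on each side the difference was -1.06 (adjusted p = 0.0983). The Cebpa promoter carried an island in all 8 libraries. The farthest Cebpa enhancer that the study names lies just beyond the 50 kb of this window.

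Pparg, the master regulator of the fat cell, lay between. It covered 25.6 and 29.0 kb at 0 h and 41.4 and 40.8 kb at 48 h with SETD5 (0.57 ± 0.20, adjusted p = 0.0553), against 32.8 and 19.6, then 56.6 and 50.2 kb with empty vector. The times did not overlap in SETD5-transduced cells. The change passed with the replicate letter as a block (adjusted p = 0.0464), with 20 kb on each side (adjusted p = 0.0177), with libraries scaled to their total covered length (adjusted p = 0.0137) and without either empty-vector 0 h library (adjusted p = 0.00495 and 0.00461). The difference between the vectors was -0.47 ± 0.28 (adjusted p = 0.412). The study describes Pparg enhancers more than 50 kb from the gene's start. They lie outside this window and were not part of the test.

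**Figure D4:**
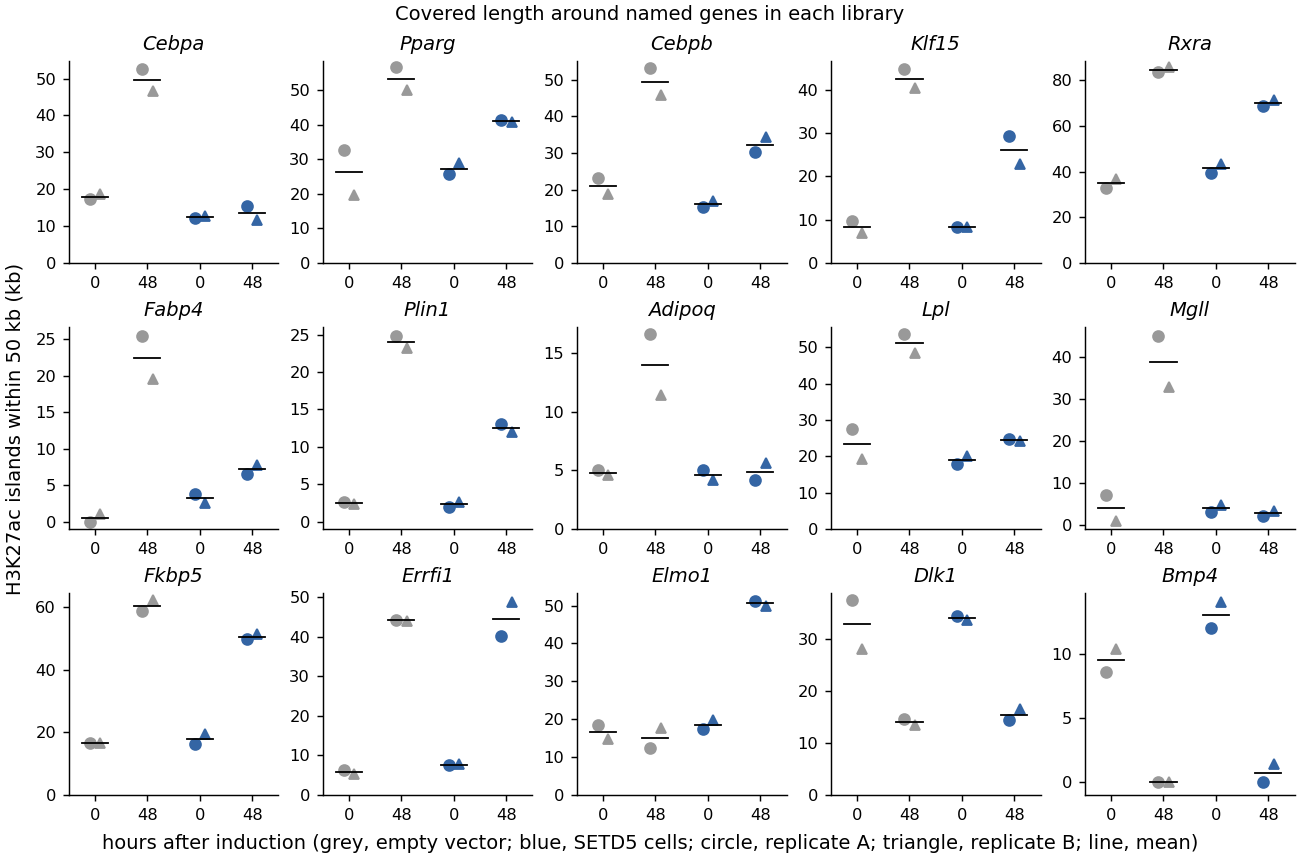
Length of H3K27ac islands within 50 kb of the 5′ end of 15 genes, in kb, in each library (grey, empty vector; blue, SETD5-transduced cells; circles, replicate A; triangles, replicate B; lines, means), at 0 and 48 h. Cebpa covers 15.3 and 11.7 kb at 48 h with SETD5 against 52.7 and 46.5 kb with empty vector, whereas Fkbp5 and Errfi1 are high at 48 h in both.

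Fewer genes of lipid storage and lipolysis passed the test with SETD5 than with empty vector. The difference itself was called lower for 7 of 21, beside 2.37% of all windows. Of 21 tested with SETD5, 4 rose, none fell and 17 did not pass, beside 15.0% rising and 11.5% falling over all windows. Their median change was 0.34. With empty vector 14 rose, beside 24.1% over all windows, with a median of 1.23. With SETD5, 7 rose without the 0 h library B of empty vector. Lipe, hormone-sensitive lipase, went from 12.6 and 11.6 to 34.1 and 35.3 kb with SETD5 (1.45 ± 0.13, adjusted p = 5.59e-05), the same change as with empty vector (1.44). Plin1, the lipid droplet coat protein, went from 2.00 and 2.60 to 13.0 and 12.0 kb (2.04 ± 0.18, adjusted p = 5.05e-05), and reached 24.9 and 23.3 kb with empty vector. Abhd5, a coactivator of fat lipolysis, went from 10.8 and 11.8 to 24.8 and 24.4 kb (adjusted p = 0.00103, and 0.0909 with 20 kb on each side). Pnpla2, adipose triglyceride lipase, covered 22.8 and 19.4 kb at 0 h and 34.8 and 26.2 kb at 48 h (adjusted p = 0.0854), but passed in 5 alternatives, among them the replicate block (adjusted p = 0.0197). Windows of 7 genes of the list had a lower change with SETD5 than with empty vector: Mgll, G0s2, Lpin1, Agpat2, Fitm2, Agpat9 and Cidec. All but Mgll were named after their values were seen, and the count ranged from 1 to 5 when single libraries were left out.

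Fatty acid uptake and synthesis gave a similar split, with 4 of 17 rising, 1 falling and 12 not passing, against 10 rising with empty vector. Beside this, 15.0% of all windows rose and 11.5% fell with SETD5, and 24.1% rose with empty vector. Without either 48 h library of SETD5-transduced cells 2 rose. Scd1, a desaturase, went from 4.40 and 4 to 15.8 and 25 kb (2.01 ± 0.21, adjusted p = 0.000124), and Scd2 from 29.0 and 31.0 to 42 and 45.6 kb (adjusted p = 0.00597, and 0.0577 without the 48 h library B). Fabp4, the fatty acid carrier of adipocytes, covered 3.8 and 2.63 kb at 0 h and 6.6 and 7.80 kb at 48 h with SETD5, and went from 0.00 and 1.03 to 25.4 and 19.6 kb with empty vector. Its rise with SETD5 had an adjusted p of 0.0463, which did not hold in 10 of the alternatives run (0.0502 to 0.288). The difference between the vectors was -3.06 ± 0.45 (adjusted p = 0.0106). Cd36 coverage in SETD5-transduced cells alone would not reach the mean of 1 kb asked of a tested window. Cd36, a fatty acid transporter, was listed at 0 at 0 h in both vectors and held 2.00 and 1.20 kb at 48 h with SETD5 against 9.62 and 4.80 kb with empty vector (adjusted p = 0.00969 with SETD5, 0.0912 without the 48 h library A and 0.0966 over the gene body). Lpl, lipoprotein lipase, covered 17.8 and 20 kb, then 24.8 and 24.2 kb with SETD5 (adjusted p = 0.134, with 0.0194 to 0.0483 in 4 alternatives and a log2 change of -0.06 over the gene body), and 27.6 and 19.4, then 53.8 and 48.6 kb with empty vector. Fasn, fatty acid synthase, covered 15.9 and 16.3, then 19.6 and 23.8 kb (adjusted p = 0.0747, with 0.0431 and 0.0466 in 2 alternatives). Slc27a1, another fatty acid transporter, was the window that fell, from 30.0 and 25.4 to 16.8 and 21.0 kb (adjusted p = 0.048, and 0.0548 to 0.285 in 11 alternatives).

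Of 11 adipokine and mature adipocyte genes tested, 6 rose with SETD5 and all 11 with empty vector, beside 15.0 and 24.1% over all windows. With SETD5 the count was 3 without the 0 h library A or the 48 h library B, and 4 without either of the other two. Orm1, an acute phase protein, went from 9 and 11.2 to 23.8 and 21.6 kb (adjusted p = 0.00188), and Nampt, an enzyme of NAD synthesis, from 5 and 2.60 to 9.80 kb in both letters (adjusted p = 0.00392, and 0.124 with 20 kb on each side). Apoe, apolipoprotein E, covered 18.1 and 19.7, then 24.5 and 29.5 kb (adjusted p = 0.0171, and 0.067 to 0.14 over the gene body and without the 0 h library A or the 48 h library B). Angptl4, an inhibitor of lipoprotein lipase, covered 17.8 and 20.6, then 23.6 and 29.2 kb (adjusted p = 0.0885, with 0.0137 and 0.035 in 2 alternatives). Adipoq, which encodes adiponectin, stayed within its spread, at 5 and 4.2 kb, then 4.2 and 5.60 kb with SETD5 (adjusted p = 0.866), against 16.6 and 11.4 kb at 48 h with empty vector. Its difference between the vectors was -1.28 ± 0.31 (adjusted p = 0.0529). The Adipoq promoter had an island in both empty-vector 48 h libraries and in no SETD5-transduced library, whereas the Fabp4 and Plin1 promoters had one in both 48 h libraries of either vector.

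Few preadipocyte genes passed the test with SETD5. Of 16 preadipocyte and anti-adipogenic factors tested, 3 fell, 1 rose and 12 did not pass, with a median of -0.08. Over all windows 11.5% fell and 15.0% rose. With 20 kb on each side 4 of 14 fell and none rose, and over the gene body 5 of 16 fell and none rose. Dlk1, the preadipocyte ligand that inhibits adipogenesis, went from 34.4 and 33.6 to 14.4 and 16.6 kb (-1.09 ± 0.15, adjusted p = 0.00074). Empty-vector cells ended at 14.6 and 13.4 kb. Irf4, an interferon regulatory factor, rose from 2.60 and 0.80 to 8.80 and 11.0 kb (adjusted p = 0.000774). Twist2 and Hes1, transcription factors of mesenchymal and Notch signalling, covered 19.6 and 29.8, then 31.6 and 34.8 kb, and 23.0 and 24.8, then 17.8 and 16.8 kb (adjusted p = 0.121 and 0.0891). Twist2 passed without the 0 h library B (adjusted p = 0.0243), and Hes1 in 4 alternatives (adjusted p = 0.0105 to 0.0255).

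Of 25 matrix genes, 5 fell and 3 rose, beside 11.5 and 15.0% over all windows. The falling count was 3 without the 0 h library B. Col1a2, a chain of type I collagen, fell from 50.4 and 47.8 to 19.0 and 24.8 kb (-1.14 ± 0.14, adjusted p = 0.000397), and Thbs2, a thrombospondin, from 44.1 and 48.1 to 21.4 and 25.2 kb (adjusted p = 0.00124). The basement membrane collagens Col4a1 and Col4a2, which share a promoter region and hence their islands, rose from 43.8 and 51.4 to 82.8 and 81.2 kb (adjusted p = 0.00496). Of 17 actin cytoskeleton genes, 3 fell and 1 rose, beside the same 11.5 and 15.0% over all windows. Acta2, smooth muscle actin, fell from 17.2 and 17.4 to 6.80 and 5.60 kb (adjusted p = 0.000996), and Tpm1, a tropomyosin, from 39.8 and 39.0 to 21.2 and 25.6 kb (adjusted p = 0.00236). Tagln, transgelin, rose from 16.1 and 15.4 to 25.8 and 32.9 kb (adjusted p = 0.00289). Myh9, nonmuscle myosin, covered 64.4 and 69.8, then 56.0 and 60.0 kb (adjusted p = 0.146, and 0.0498 with scaling to covered length). With 20 kb on each side neither Tpm1 (adjusted p = 0.793) nor Tagln (adjusted p = 0.231) passed, nor did they over the gene body (adjusted p = 0.155 and 0.396).

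Of 11 genes of the TEAD and YAP list, 2 fell and 2 rose, close to the 11.5 and 15.0% over all windows, and 1 rose without the 0 h library A or either 48 h library of SETD5-transduced cells. Ankrd1, a YAP target, fell from 15.8 and 18 to 2.00 and 5.20 kb (-2.05 ± 0.31, adjusted p = 0.00103), and Lats2, a kinase upstream of YAP, from 19.0 and 20.2 to 10.2 and 9.18 kb (adjusted p = 0.00188). Tead4 rose from 14.0 and 14.4 to 26.0 and 27.4 kb (adjusted p = 0.00125), and Cyr61, a matricellular YAP target, from 13.6 and 17.6 to 24.2 kb in both letters (adjusted p = 0.0148). Cyr61 did not pass in 5 alternatives (adjusted p = 0.0808 to 0.231), among them without the 0 h library A or either 48 h library of SETD5-transduced cells. Of 11 AP-1 factors, Fosl1 rose from 32.6 and 33.0 to 52.4 and 58.6 kb (adjusted p = 0.000611). Atf3, a stress factor, fell from 3.8 and 4 to 1.60 kb in both letters (adjusted p = 0.00911, 0.0507 to 0.0532 without the 0 h library B or either 48 h library, and 0.131 with the 31000 highest-scoring islands). Jund and Fosl2 did not pass (adjusted p = 0.653 and 0.188), although Fosl2 did with 20 kb on each side (adjusted p = 0.0356) and over the gene body (adjusted p = 0.037).

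Of 16 cytokine and chemokine windows, 3 fell and 3 rose, beside 11.5 and 15.0% over all windows, and 2 rose without the 0 h library A or the 48 h library B. Csf1, the macrophage growth factor, fell from 65.8 and 63.6 to 39.2 and 41.0 kb (adjusted p = 0.00179), and Ccl2 and Ccl7, chemokine genes that are neighbours and share islands, from 40.6 and 38.6 to 14.6 and 22.4 kb (adjusted p = 0.00124). Csf1 did not pass over the gene body (adjusted p = 0.0933), nor Ccl2 with 20 kb on each side (adjusted p = 0.0612). Cx3cl1, a membrane-bound chemokine, rose from 20.8 and 19.4 to 33.8 and 36 kb (adjusted p = 0.00143). Of 22 TGF-beta and BMP genes, 5 rose and 3 fell, beside 15.0 and 11.5% over all windows. Without single libraries of SETD5-transduced cells 1 to 3 rose and 1 or 2 fell, the lowest being 1 each without the 0 h library B. Bmp4 fell from 12.0 and 14.0 to 0.00 and 1.40 kb (-3.17 ± 0.35, adjusted p = 0.000176), and Tgfbr3, a coreceptor, rose from 16 and 20.6 to 42.4 and 44.4 kb (adjusted p = 0.000539). Tgfb1 covered 11.6 and 11.2, then 17.0 and 18.2 kb (adjusted p = 0.0114), and Smad6, an inhibitor of BMP signalling, 28.9 and 33.3, then 24.3 and 17.1 kb (adjusted p = 0.0489). With 20 kb on each side neither kept its direction, at log2 changes of -0.09 for Tgfb1 and 0.06 for Smad6. Smad6 did not pass in 10 alternatives (adjusted p = 0.059 to 0.865) and Tgfb1 in 4 (adjusted p = 0.0607 to 0.812).

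Of 27 cell cycle genes, 5 rose and 4 fell, near the 15.0 and 11.5% over all windows, and 2 fell without any 1 of the 4 libraries of SETD5-transduced cells. Top2a, the topoisomerase of dividing cells, rose from 19.0 and 20 to 44.9 and 51.7 kb (1.26 ± 0.15, adjusted p = 0.000265), and Rbl1, a relative of the retinoblastoma protein, from 3.40 and 1.40 to 10.4 and 10.0 kb (adjusted p = 0.00121), with a log2 change of -0.13 with 20 kb on each side (adjusted p = 0.899). Mcm2, a replicative helicase subunit, fell from 33.8 and 36.6 to 16.6 and 18.2 kb (adjusted p = 0.000897, and a change of -0.31 with adjusted p = 0.362 over the gene body), and E2f1 from 21.8 and 23.4 to 10.0 and 13.8 kb (adjusted p = 0.00331). Of 13 genes for SETD5, its corepressor partners and acetyltransferases, none rose and 1 fell, which was Tbl1x, an NCoR subunit, from 18.8 and 23.6 to 13.0 and 10.6 kb (adjusted p = 0.0193). It did not pass without the 48 h library A, the 0 h library B or the 48 h library B (adjusted p = 0.0511 to 0.146), and its log2 change was -0.01 with 20 kb on each side. Gps2, another subunit, covered 13.6 and 13.4, then 16 and 15.4 kb (adjusted p = 0.431), and Rnf213, a ubiquitin ligase, 7.80 and 8.20, then 5.20 and 6.00 kb (adjusted p = 0.102).

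Over all genes, the largest rises in kb gave further loci that responded with SETD5. Ang6, a ribonuclease of the angiogenin family, went from 16.2 and 13.4 to 57.1 and 66.1 kb (1.99 ± 0.21, adjusted p = 0.00015). Angptl7 went from 15.4 and 19.2 to 62.0 and 65.8 kb (adjusted p = 0.000106), and Prr15 from 10.4 and 11.0 to 47.2 and 52.2 kb (adjusted p = 2.96e-05). Dcxr, a carbonyl reductase, Phf15, a subunit of a histone acetyltransferase complex, Mterfd2 and Sned1 rose by 37.1 to 40 kb on average, of which Sned1 did not pass with 20 kb on each side (adjusted p = 0.0597). None of these 7 changes differed from that of empty vector past the test (adjusted p = 0.286 to 0.97). The lengthened domain at the Sned1 promoter has Mterfd2 as its nearest gene by 5′ end. The windows of Mterfd2 and Sned1 may therefore share islands.

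The largest falls in kb covered genes of several kinds. Gpihbp1, which anchors lipoprotein lipase to capillaries, went from 43.2 and 44.4 to 5.60 and 10.4 kb (-2.37 ± 0.22, adjusted p = 6.96e-05). Efemp1, a fibulin, went from 52.2 and 49.8 to 14.4 and 19.2 kb (adjusted p = 0.00411, and 0.0516 without the 48 h library A). The related CCN genes Nov and Wisp1 went from 40.3 and 56.2 to 20.5 and 21.3 kb and from 65.3 and 69.7 to 37.1 and 43.5 kb (adjusted p = 0.000439 and 0.00114). Tns3, a tensin of focal adhesions, Fbln7, a fibulin, Cdc42ep3, an effector of CDC42, Sla and 5031434C07Rik fell by 24.9 to 31.9 kb, with adjusted p from 2.52e-05 to 0.000245. Over the gene body with 10 kb on each side Tns3 (adjusted p = 0.147), Wisp1 (adjusted p = 0.148) and 5031434C07Rik (log2 change -0.50, adjusted p = 0.477) did not pass. For none of these 9 did the change differ from that of empty vector past the test, the lowest adjusted p being 0.0702 for Gpihbp1.

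The test of the difference itself called few windows. The change was higher with SETD5 in 254 windows (1.56%) and lower in 385 (2.37%), beside a median difference over all windows of -0.13 (log2). Among the 254, coverage with empty vector went from a median of 7.60 kb to 1.70 kb and with SETD5 from 7.10 to 6.00 kb. Among the 385, it went from 3.90 to 14.5 kb with empty vector and from 6.30 to 6.4 kb with SETD5. These medians pool windows of both directions. Of the 254, 74 rose and 47 fell with SETD5 itself past the test, and of the 385, 88 rose and 83 fell. These counts rest on single libraries. They were 27 and 30 without the SETD5 48 h library A, 28 and 58 without the 48 h library B, and 46 and 53 without the 0 h library B. Without the 48 h library A of empty vector they were 119 and 78, and without its 0 h library B 158 and 144, both with more windows higher than lower. Without the 0 h library A of either vector they were 103 to 112 higher and 170 to 317 lower.

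The 5 most negative differences in kb, Cebpa among them, included lipid genes. Mgll, monoglyceride lipase, covered 3.00 and 4.80 kb, then 2.21 and 3.21 kb with SETD5, and 7.20 and 1.00, then 45 and 33.0 kb with empty vector. Acsl1, an acyl-CoA synthetase, covered 4.60 and 3.60, then 7.60 and 5.20 kb with SETD5, and 47.8 and 37.0 kb at 48 h with empty vector. At 48 h both SETD5-transduced libraries of these genes lay far below both empty-vector libraries. Adipor2, an adiponectin receptor, rose with SETD5 from 4.50 and 8.10 to 22.6 and 26.4 kb (adjusted p = 0.000983), short of the 55.6 and 49.3 kb of empty vector. Smoc1, a matricellular protein, was listed at 0 in all 4 libraries of SETD5-transduced cells and went from 2.80 and 2.20 to 44.2 and 40.8 kb with empty vector. Smoc1 thus entered the test only through its empty-vector libraries. Over its gene body the difference did not pass (adjusted p = 0.108). Nor did it over the gene bodies of Mgll (adjusted p = 0.059) and Acsl1 (adjusted p = 0.0936). With 20 kb on each side it did not pass for Acsl1 (adjusted p = 0.084) and Adipor2 (adjusted p = 0.217). Calls of Mgll, Acsl1 and Adipor2 were also lost when single libraries were left out.

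The 5 most positive differences in kb were spread over genes of signalling and mesenchyme. Elmo1, an activator of Rac signalling, rose from 17.4 and 19.8 to 51.3 and 50 kb with SETD5 (1.40 ± 0.18, adjusted p = 0.000395), and covered 18.4 and 14.8, then 12.4 and 17.8 kb with empty vector. Il31ra, a cytokine receptor, rose from 18.3 and 21.6 to 59.7 and 61.5 kb with SETD5, and from 30.1 and 24.3 to 42.3 and 39.7 kb with empty vector. Angpt2, an angiopoietin, rose from 53.2 and 52.2 to 67.2 and 70.6 kb (adjusted p = 0.00739). Osr2, a zinc finger factor of mesenchyme, covered 26.2 and 26.8, then 24.6 and 24.2 kb with SETD5 and fell from 41.6 and 30.4 to 11.6 and 9.20 kb with empty vector. Anpep, aminopeptidase N, covered 21.4 and 28.4, then 31.5 and 38.3 kb with SETD5 (adjusted p = 0.0699), and fell from 28.3 and 22.3 to 13.0 and 13.6 kb with empty vector. Over the gene body with 10 kb on each side the difference did not pass for Il31ra, Angpt2, Osr2 and Anpep (adjusted p = 0.0507 to 0.138). With 20 kb on each side it did not for Elmo1, Il31ra and Anpep (adjusted p = 0.0541 to 0.138). Each of the 5 calls was also lost when some single libraries were left out.

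**Figure D5:**
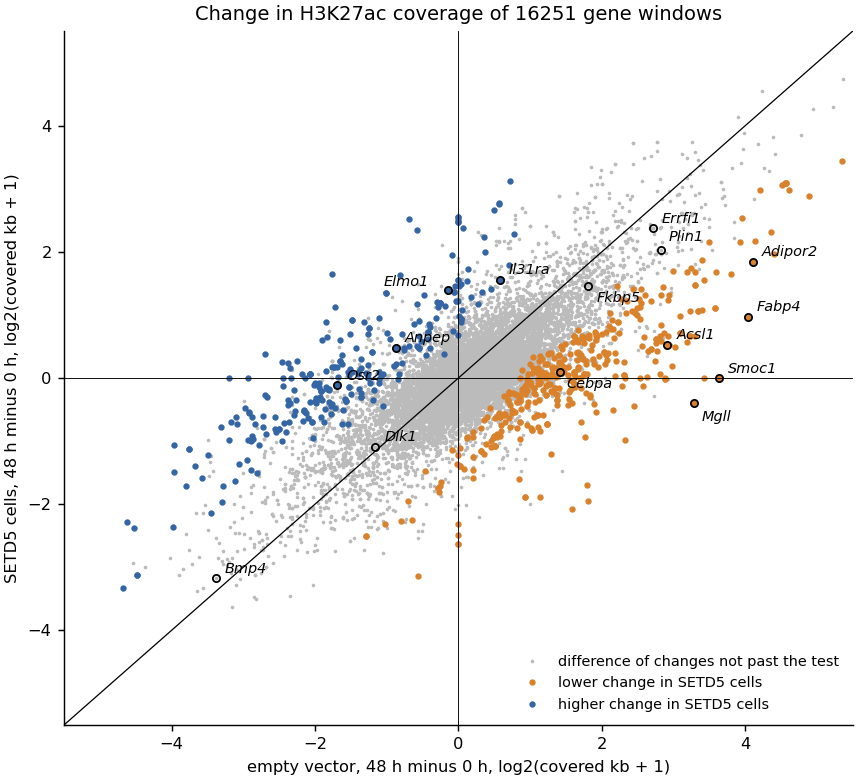
Change in covered length from 0 h to 48 h, on the log2(covered kb + 1) scale, with empty vector (horizontal) and SETD5 (vertical), 1 point per gene window of 16251. Windows with a lower change with SETD5 (orange, 385) and with a higher change (blue, 254) passed the limma test of the difference; the diagonal marks equal change, and Smoc1, Mgll, Acsl1 and Cebpa lie near 0 on the vertical axis.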

How the data were processed

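ChIP-seq island lists of H3K27ac in 8 libraries (4 of SETD5-transduced cells), SETD5-V5 in 4 and H3K4me1 in 2 were used, and lists of endogenous SETD5 were not used here. The authors aligned reads (ELAND or Bowtie2, mouse build mm9), and each library's islands came from SICER. The deposited lists give the position and a score of each island, and no read counts, so no counting interval can be given. The study reports total reads for each library. Every H3K27ac library of SETD5-transduced cells had more reads than any of empty-vector cells. The number of islands called moves with depth, and its part in the differences between the vectors was not tested. Scores were used only as ranks within a list.

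Islands were compared by an overlap of 1 bp. Island length was summed within 50 kb of each protein-coding gene's 5′ end (NCBIM37 annotation, the same assembly as mm9), windows with a mean of at least 1 kb were kept, and log2(covered kb + 1) was fitted with limma 3.58.1 (R 4.3.3, trend and robust settings) over all 8 H3K27ac libraries without a replicate block. The mean of this filter was taken over both vectors, so Smoc1 and Cd36 passed it only through empty vector. Benjamini-Hochberg adjusted p under 0.05 was called, over 16251 windows. A fold change on this scale understates that of low windows. On simulated windows with 200 planted changes, 24% of log2 changes of 1 and 85.5% of those of 2 were recovered, with 4 and 6.04% false among the calls. The simulated windows were drawn independently of each other, unlike real windows of neighbouring genes. The false share among the real calls may therefore differ. Shares were compared by a two-sided exact permutation test.

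Members and gene lists were chosen with earlier results of these data known. Genes named were the 10 largest rises and falls in kb and the 5 largest differences each way among called windows, up to 4 per list by size of change, and fixed adipogenic genes. The replicate letters name biological replicates in the study. Alternatives were other window sizes, scaling to covered length, the 31000 highest-scoring islands, another pseudocount, no filter, the replicate block, and leaving out each library.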

Additional observations from a re-analysis of the deposited data

Results flagged for a closer look

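The change from 0 h to 48 h differed between SETD5-transduced and empty-vector cells, by the limma test of the difference with an adjusted p under 0.05, in 254 windows that were higher and 385 that were lower with SETD5. Among named windows with a higher change, the difference on the log2 scale was 1.54 for Elmo1, 0.98 for Il31ra, 0.58 for Angpt2, 1.58 for Osr2 and 1.35 for Anpep. Among those with a lower change it was -3.64 for Smoc1, which passed the coverage filter only through empty vector. It was -3.68 for Mgll, -2.39 for Acsl1, -2.26 for Adipor2 and -1.32 for Cebpa. All 10 kept their direction in every alternative run, and each lost its call in at least 1 of them.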

How the results depend on the processing

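The difference in gained share was -4.163 points with the 31000 highest-scoring islands, -1.855 with islands above the median score and -2.996 with an overlap of at least 50%. With islands above the median score 3992 regions were gained, 3622 lost, 615 lengthened and 456 shortened, and with a length limit of 2 times and 4000 bp 224 and 177 were lengthened and shortened. Single letters gave 10827 to 12098 gained, 9123 to 11427 lost, 1871 to 2052 lengthened and 1836 to 2527 shortened. With 20 kb on each side, 1492 windows rose and 1073 fell with SETD5, 2423 and 1266 with empty vector, and 82 differences were higher and 157 lower. Over the gene body 2583 rose with empty vector, and 143 and 196 differences were higher and lower. These were 406 and 627 with scaling to covered length, and 153 were higher with the 31000 highest-scoring islands. Leaving out 1 library gave 1332 to 2566 rising and 993 to 1928 falling with SETD5, 2743 to 3865 and 1496 to 1981 with empty vector, and 27 to 211 higher and 30 to 338 lower differences.

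In the central 1000 bp, H3K4me1 islands at 0 and 48 h touched 29.48 and 50.64% of gained, 53.37 and 29.11% of lost and 58.64 and 54.23% of retained regions. As matches per kb over whole regions relative to the genome, gained regions had 1.159 for C/EBP, 1.326 for AP-1 and 1.177 for AGGTCA. Lost regions had 0.97, 1.171 and 1.05, and 1.503 for TEAD. Retained regions had 0.935, 1.111 and 1.104, and 0.941 for the receptor core.

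With 20 kb on each side the log2 change with SETD5 was -0.128 for Rbl1, 0.059 for Smad6, -0.085 for Tgfb1, -0.188 for Cebpa and -0.252 for Adipoq, over the gene body -0.255 for Cebpa and -0.063 for Lpl, and with the 31000 highest-scoring islands -0.033 for Cebpa. Leaving out 1 library gave -0.088 to 0.272 for Cebpa, -0.103 to 0.241 for Adipoq, where -0.034 was reached without the 0 h library B, and -0.101 to 0.462 for Setd5, with -0.005 without the 48 h library B. The cause of these shifts was not tested.

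With the replicate letter as a block, 2337 windows rose and 1794 fell with SETD5, 3734 and 2038 with empty vector, and 221 and 286 differences were higher and lower. Deviations of libraries with the same letter correlated at -0.02 to 0.11. With 2 libraries in each group, this cannot tell whether libraries of the same letter were prepared together.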
